A study of Mus musculus with 16 samples.

Results

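The subject is a group of 10 genes, 8 encoding subunits of the transcription factor AP-1 and 2 induced early alongside them, taken by symbol from a matrix of 25105 genes: Jun, Junb and Jund of the JUN family, Fos, Fosb, Fosl1 and Fosl2 of the FOS family, the partner Atf2, and the immediate-early genes Egr1 and Ier2. All 10 were found, and all 10 had a value above 0 in each of the 16 libraries. AP-1 is a dimer of basic leucine zipper (bZIP) proteins, in which a JUN protein pairs with another JUN, with a FOS or with an ATF protein and binds short DNA elements of the TRE and CRE type. The c-Jun N-terminal kinases (JNK) phosphorylate c-JUN, JUND and ATF2, and c-JUN can drive its own gene, so that the mRNA of these genes is often read as an output of the kinase. In β cells Fos, Jun and Egr1 are known for quick transcription after glucose, cytokines and endoplasmic reticulum (ER) stress.

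Gene expression was measured by bulk poly(A) RNA-seq of dispersed islet cells from Grp78 fl/fl mice, kept for 72 hours in 15 mM glucose, in which the floxed gene encodes the ER chaperone GRP78. Each of 4 islet preparations, named F1, M1, M2 and F2 in the labels, was split into 4 cultures, giving 4 libraries per group: Ad-LacZ (control adenovirus with DMSO), Ad-Cre (adenovirus with Cre recombinase, labelled knockdown, with DMSO), and both viruses with the JNK inhibitor, named below by adding + JNK inhibitor to the virus. The inhibitor was the pan-JNK compound JNK-IN-8, present from the start. All animals carried the floxed alleles, and adenoviral Cre is not restricted to β cells. The labels give 2 animal numbers per preparation, and p-values of the main fit measure the spread between these preparations. Fits with the preparation as a block remove its mean, and their p-values measure how far differences within a preparation vary between preparations. The virus comparison asks what the loss of GRP78 does to the group, the inhibitor comparison asks how much of each mRNA depends on JNK, and their interaction asks whether that dependence differs between the viruses.

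Values are RPKM (reads per kilobase of exon, scaled to the library), so that levels can be set side by side between genes. Depth, read from the steps between low values, was 7.7 M to 25.5 M reads, lowest in the Ad-Cre + JNK inhibitor F2 library, which was also the 1 library from another sequencing lane. The targeted gene, listed as Hspa5, lay between 395 and 483 RPKM under the Ad-LacZ label and between 1107 and 1598 RPKM under the Ad-Cre label, a log2 fold change of 1.53 (SE 0.17, limma adjusted p = 0.0015). A rise is opposite to the knockdown label, but reads of the floxed exons are not separated from the rest in a value per gene. This value therefore cannot check the label, and each direction below is that of the libraries labelled Ad-Cre. Markers of β cells summed to 33252 RPKM or more in every library and those of α cells to 10971 or more. The 5 acinar markers summed to 10.6 RPKM or less. Among them Cela1 had group means of 3.13 to 5.65 RPKM, and Prss1 and Amy2a5 were at or near 0. In bulk RNA, fewer cells of a type and less RNA per cell cannot be told apart.

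Jund was the most abundant member in every group, with means of 107 RPKM in Ad-LacZ, 106 in Ad-Cre, 66.1 in Ad-LacZ + JNK inhibitor and 54.5 in Ad-Cre + JNK inhibitor, and in no group did its libraries overlap those of the next gene. In Ad-LacZ it was followed by Jun (20.8), Atf2 (18.8) and Junb (14.6), whose libraries overlapped, then by Fosl2 (7.79) and Ier2 (6.08), which overlapped, then by Egr1 (2.49) and Fos (2.46), which overlapped, and last by Fosl1 (0.515) and Fosb (0.3), all in mean RPKM. Jund made up 74.6% ± 7.16 (SD, n = 4) of the summed JUN family RPKM in Ad-LacZ, and Fosl2 made up 70.1% ± 1.74 (SD, n = 4) of the summed FOS family. Fosl2 encodes FRA2, and by this sum c-FOS and FOSB had 22.5% ± 1.59 and 2.68% ± 0.767 of the FOS family message (SD, n = 4).

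**Figure D1:**
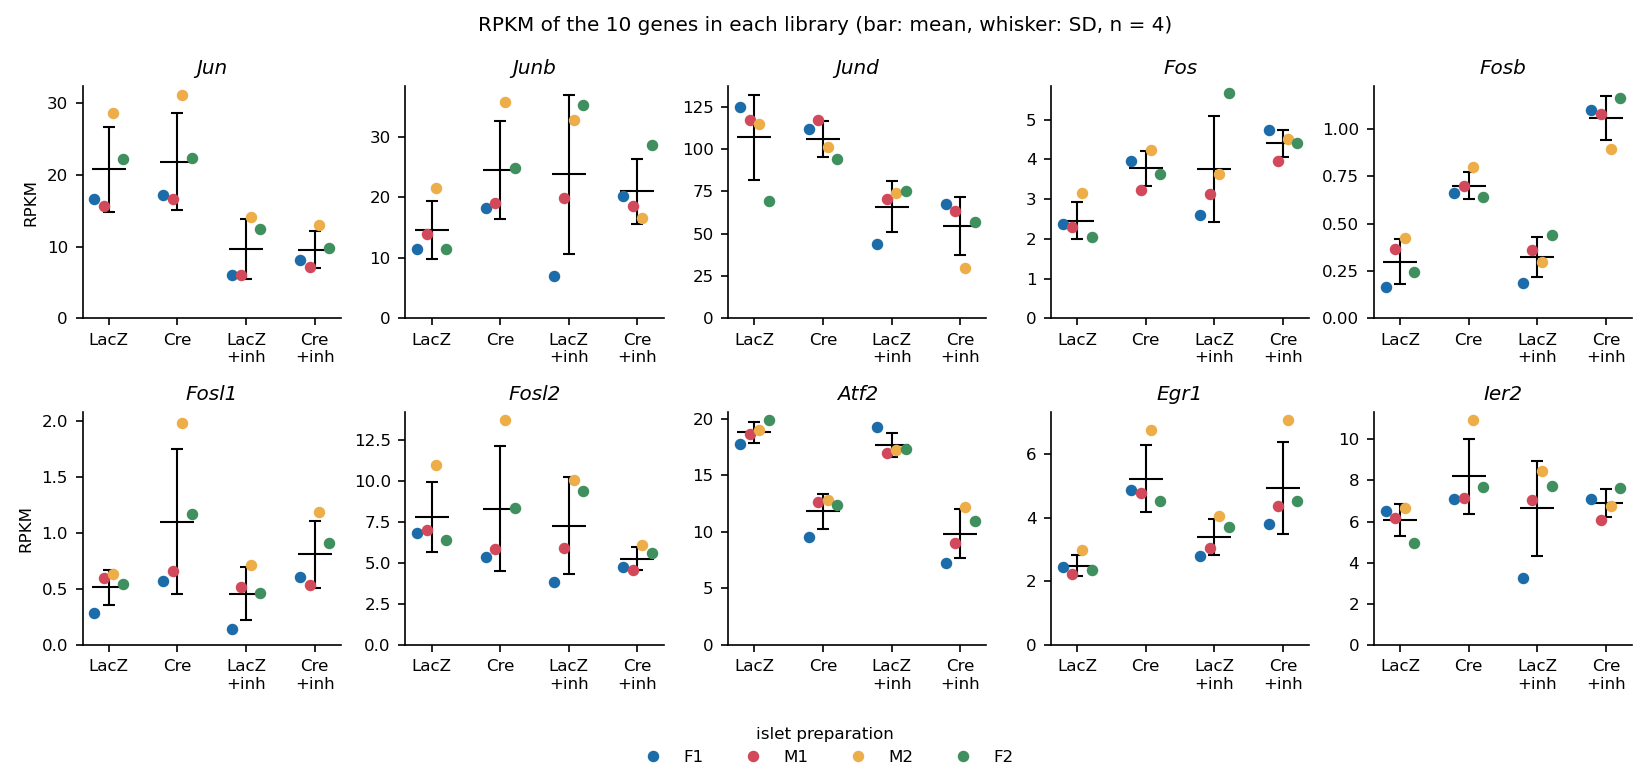
RPKM of the 10 genes (y axes, linear from 0, 1 panel per gene) in the 4 groups (x axes), 1 point per library coloured by islet preparation, with the group mean and SD (n = 4). Jun is lower in both inhibitor groups, Atf2 is lower and Egr1 and Fosb are higher in the Ad-Cre groups, and the M2 preparation is the highest of its group for Jun in all 4 groups.

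Shown here are 3 genes with the 250 bases before their annotated start: Jun, which was lower with the inhibitor, and Fos and Fosb, which were not. A link between promoter sequence and the response to the inhibitor was not tested. The sequences are those of RefSeq on GRCm38.p6, which held a promoter for 7 of the 10 members, and run 5′ to 3′ on the strand of the gene: the minus strand at chr4:95052223-95052472 for Jun, the plus strand at chr12:85473640-85473889 for Fos and the minus strand at chr7:19310046-19310295 for Fosb. Capitals mark matches to TGACATCA and TTACCTCA, the AP-1-like elements known from the JUN promoter, to the TRE TGACTCA, to the CRE TGACGTCA and to the CRE core TGACG, searched on both strands, where a CRE would also hold the core.
Jun: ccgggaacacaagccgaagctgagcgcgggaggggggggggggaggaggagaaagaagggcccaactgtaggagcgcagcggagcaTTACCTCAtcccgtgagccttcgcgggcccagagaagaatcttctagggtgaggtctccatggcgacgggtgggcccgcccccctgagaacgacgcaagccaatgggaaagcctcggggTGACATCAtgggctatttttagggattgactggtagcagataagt
Fos: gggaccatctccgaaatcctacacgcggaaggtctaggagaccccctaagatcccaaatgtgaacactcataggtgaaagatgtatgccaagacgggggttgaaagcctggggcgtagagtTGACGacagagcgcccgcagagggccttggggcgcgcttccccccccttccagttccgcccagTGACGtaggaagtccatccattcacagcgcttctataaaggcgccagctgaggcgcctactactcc
Fosb: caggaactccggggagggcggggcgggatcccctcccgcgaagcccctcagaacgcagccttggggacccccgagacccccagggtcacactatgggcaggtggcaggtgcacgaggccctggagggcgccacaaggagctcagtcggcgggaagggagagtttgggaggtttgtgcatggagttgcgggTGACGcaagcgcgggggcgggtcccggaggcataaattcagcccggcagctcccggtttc
Jun alone among the 7 held TGACATCA, 45 to 38 bases before the start, and TTACCTCA, 164 to 157 bases before it. TGACATCA is in 2.93% and TTACCTCA in 0.728% of 32851 promoter windows of this length. The core TGACG was found at 2 places in Fos, 129 to 125 and 66 to 62 bases before the start, at 1 place in Fosb, 60 to 56 bases before it, and in Junb, and is in 17.8% of the windows. These are matches of letters and not evidence of binding. No member's window held TGACTCA (4.46% of windows) or TGACGTCA (1.55%). The Jund window held none of the motifs, although Jund too was lower with the inhibitor. That window, chr8:70697489-70697738, ends well before the gene start given below, 70698949. The Fosl2 window, chr5:32136222-32136471, lies inside the gene as given below. A motif missing from these windows cannot be read as missing from the promoters of Jund and Fosl2.

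In the comparison of Ad-Cre with Ad-LacZ, 4 of the 8 members that passed the filter of more than 1 RPKM in at least 4 libraries changed at an adjusted p under 0.05 (limma, Benjamini-Hochberg over 11590 genes, of which 19.3% were called): Egr1, Fos and Junb rose and Atf2 fell. The median log2 fold change of the 8 was 0.23, against 0.01 over all genes tested. Fosb and Fosl1 were too low for the filter. By an unadjusted p under 0.05 and a fold change above 1.5, 3 of the 8 (Junb, Egr1 and Atf2) and 10.2% of all genes were called. The RPKM of the groups did not overlap for 4 of the 8, as for 27.7% of all genes tested.

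Jun, which encodes c-JUN (chr4:95049034-95052222, minus strand), had 16.7, 15.7, 28.6 and 22.2 RPKM in the Ad-LacZ libraries of F1, M1, M2 and F2, and 17.3, 16.6, 31.2 and 22.5 RPKM in the Ad-Cre libraries. The groups overlapped and the preparations kept their order, M2 being the highest in both. For Jun the log2 fold change was 0.08 (SE 0.20, limma adjusted p = 0.805, exact permutation p = 0.743), and the SE was 0.08 once the preparation was taken as a block, so that Jun passed the test in neither fit.

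Junb, whose product can dampen c-JUN activity (chr8:84974484-84978718, minus strand), had 11.4, 14, 21.5 and 11.5 RPKM in Ad-LacZ and 18.3, 19.1, 35.8 and 24.8 RPKM in Ad-Cre, again in the order F1, M1, M2 and F2. It was higher with Ad-Cre in 4 of 4 preparations, although M2 of Ad-LacZ lay above F1 and M1 of Ad-Cre. On the log2 scale the difference was 0.72 (SE 0.21, limma adjusted p = 0.0455), and the exact two-sided permutation test gave p = 0.0857. The call was lost under 7 of 15 alternatives, with adjusted p from 0.00332 to 0.208, among them RPKM as deposited and leaving out F1, M1 or F2. Junb shares 173 of its 2301 exon bases with Prdx2, a peroxiredoxin gene on the other strand with 43.3 RPKM in Ad-Cre and 31.8 in Ad-LacZ, and no source states whether reads were counted by strand.

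Jund, the constitutively expressed member of the family (chr8:70698949-70700616, plus strand), had 125, 117, 115 and 69.5 RPKM in Ad-LacZ and 112, 117, 101 and 94 RPKM in Ad-Cre. F2 of Ad-LacZ was the lowest of the 8 libraries and the groups overlapped. Its log2 fold change of 0.04 (SE 0.20, limma adjusted p = 0.913) turned to -0.12 after quantile normalization. Jund shares 877 of its 1668 exon bases with the antisense gene Gm11175, and Jun 232 of its 3189 with the antisense gene Junos, neither of them used here, so that reads of either strand may be in their values.

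Fos, which encodes c-FOS (chr12:85473890-85477273, plus strand), had 2.38, 2.3, 3.14 and 2.04 RPKM in Ad-LacZ and 3.96, 3.23, 4.23 and 3.64 RPKM in Ad-Cre. Each Ad-Cre library lay above each Ad-LacZ library, the closest being M1 of Ad-Cre and M2 of Ad-LacZ. Fos rose by 0.48 on the log2 scale (SE 0.11, limma adjusted p = 0.019), with p = 0.0286 in the exact two-sided permutation test, the smallest that 4 against 4 allow. The call was lost when F1, M1 or F2 was left out, where the fold change stayed between 0.44 and 0.52 over the 4 left-out preparations and the adjusted p reached 0.089.

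Fosb, which encodes FOSB and its truncated form ΔFOSB (chr7:19302696-19310051, minus strand), had 0.165, 0.367, 0.425 and 0.243 RPKM in Ad-LacZ and 0.662, 0.699, 0.8 and 0.641 RPKM in Ad-Cre. These values rest on 23 to 61 reads per Ad-LacZ library and 59 to 112 per Ad-Cre library, and the 95% Poisson interval of the lowest, F1 of Ad-LacZ, is 0.105 to 0.247 RPKM, which covers counting error only. The groups did not overlap, and the mean was 2.34 times as high with Ad-Cre. With the filter lowered to 0.1 RPKM, where 12.2% of 15237 genes were called, Fosb rose by 0.40 on the log2(RPKM + 1) scale (SE 0.08, limma adjusted p = 0.0185), a scale on which changes of such low genes are understated.

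Fosl1, which encodes FRA1 (chr19:5447547-5455946, plus strand), had 0.288, 0.597, 0.637 and 0.539 RPKM in Ad-LacZ and 0.575, 0.663, 1.99 and 1.17 RPKM in Ad-Cre. F1 of Ad-Cre lay within the Ad-LacZ range, and M2 and F2 of Ad-Cre were the highest. Its log2 fold change with the 0.1 RPKM filter was 0.42 (SE 0.17, limma adjusted p = 0.138), and 0.0475 was the adjusted p with the preparation as a block, where 24.5% of all genes were called. By the annotation used here, Fosl1 shares 1163 of its 2033 exon bases with Ccdc85b on the other strand. Ccdc85b had 29.1 RPKM in Ad-Cre and 23.1 in Ad-LacZ. Whole reads were not recovered for Fosl1 with this length, so the Fosl1 values and this overlap are uncertain.

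Fosl2 (chr5:32135801-32157842, plus strand) had 6.84, 7.01, 10.9 and 6.38 RPKM in Ad-LacZ and 5.36, 5.84, 13.7 and 8.37 RPKM in Ad-Cre. It was higher with Ad-Cre in M2 and F2 and lower in F1 and M1, and the log2 fold change was 0.04 (SE 0.23, limma adjusted p = 0.918).

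Atf2, which encodes a CRE-binding partner of c-JUN and a direct JNK substrate (chr2:73816509-73892639, minus strand), had 17.8, 18.7, 19 and 19.9 RPKM in Ad-LacZ and 9.5, 12.6, 12.8 and 12.4 RPKM in Ad-Cre. Every Ad-Cre library lay below every Ad-LacZ library. It fell by 0.62 on the log2 scale (SE 0.09, limma adjusted p = 0.00477, exact permutation p = 0.0286), and the call held under all 15 alternatives, with adjusted p from 0.0031 to 0.0486.

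Egr1, which encodes a zinc finger factor induced through ERK and SRF, had 2.44, 2.21, 2.98 and 2.35 RPKM in Ad-LacZ and 4.86, 4.76, 6.77 and 4.52 RPKM in Ad-Cre. The groups did not overlap, M2 was the highest in each, and the mean was 2.1 times as high with Ad-Cre. Egr1 rose by 0.84 on the log2 scale (SE 0.11, limma adjusted p = 0.00313), and the call held under all 15 alternatives, with adjusted p from 0.00108 to 0.0318.

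Ier2, an immediate-early gene whose product is a small nuclear protein (chr8:84661331-84662852, minus strand), had 6.5, 6.19, 6.66 and 4.96 RPKM in Ad-LacZ and 7.09, 7.14, 10.9 and 7.67 RPKM in Ad-Cre. The groups did not overlap, but the margin between M2 of Ad-LacZ and F1 of Ad-Cre was small. Its log2 fold change was 0.38 (SE 0.13, limma adjusted p = 0.0671), and the adjusted p was 0.0291 with the preparation as a block, where 5 of the 8 members and 34.5% of all genes were called.

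Fold changes varied with base composition in this comparison, and levels of some cell type markers differed. When all genes were cut into 10 equal bins by the GC of their exons, the bin with the least GC had a median log2 fold change of -0.27 and the bin with the most a median of 0.16. Atf2, at 41.2% GC, belongs to the first of these, while Junb at 62.7%, Ier2 at 60.9% and Jund at 67.1% belong to the last. Egr1 at 55.5% and Fos at 55.1% belong to bin 8, with a median of 0.14. Of the 9 β cell markers 2 fell, and 6 fell with the block. Of the 6 macrophage markers 1 rose, and 3 rose with the block, their summed level being 66.1 to 74.7 RPKM in Ad-LacZ and 64.9 to 194 RPKM in Ad-Cre, highest in M2 and F2. C1qb had 0.127 to 1.28 RPKM in Ad-LacZ and 1.66 to 4.8 in Ad-Cre, and Adgre1 0.442 to 1.1 and 1.14 to 1.65. Both passed the filter through the Ad-Cre libraries, where they were high, so these macrophage counts are no evidence about the list. Of all 11590 genes tested 10.3% fell and 8.98% rose, and with the block 2037 genes fell and 1961 rose. The part of composition and cell types in the values of the members was not tested.

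With the JNK inhibitor in Ad-LacZ cultures, Jun was lower by about the same amount in each preparation, Jund was lower in 3 of 4, and Fos and Egr1 were higher in 4 of 4. None of the 8 members tested had an adjusted p under 0.05 (limma, 0.206% of 11657 genes called, 740 genes at an unadjusted p under 0.05). By the looser rule of an unadjusted p under 0.05 and a fold change above 1.2, 4 of the 8 members and 4.79% of all genes were called.

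Jun had 6.02, 6.12, 14.1 and 12.5 RPKM in the Ad-LacZ + JNK inhibitor libraries of F1, M1, M2 and F2, each below the lowest Ad-LacZ library (15.7 RPKM), and Jun was the 1 of 8 without overlap where 4.84% of all genes had none. The differences by preparation on the log2 scale were -1.21, -1.23, -0.94 and -0.87. Their fit gave a log2 fold change of -1.06 (SE 0.25, limma p = 0.00203, adjusted p = 0.234, exact permutation p = 0.0286). With the preparation as a block the SE was 0.09 and the adjusted p was 0.0365, where 0.360% of all genes were called and Jun was the 1 member among them. With the 0.1 RPKM filter and the block, where 0.0131% of 15257 genes were called, the adjusted p was 0.0529.

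Jund had 44, 70.7, 74.3 and 75.5 RPKM in the same libraries. F1 was far below the others, and F2 was above its own Ad-LacZ library of 69.5 RPKM, so that the groups overlapped. Its log2 fold change was -0.66 (SE 0.20, exact permutation p = 0.0857, limma adjusted p = 0.468), and leaving out 1 preparation moved it between -0.88 and -0.43. Junb had 6.95, 19.9, 32.9 and 35.3 RPKM, lower than its control in F1 and higher in the other 3 preparations, with a log2 fold change of 0.50 (SE 0.40, limma adjusted p = 0.998), which was 0.85 without F1 and 0.19 without F2.

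Fos had 2.61, 3.13, 3.63 and 5.66 RPKM, higher than its own control in each preparation and most so in F2, while F1 and M1 stayed within the Ad-LacZ range. After scaling between libraries the groups did not overlap. The log2 fold change of Fos was 0.44 (SE 0.15, exact permutation p = 0.0286, limma adjusted p = 0.588). It was 0.24 without F2 and up to 0.53 without another preparation. Egr1 had 2.8, 3.06, 4.04 and 3.71 RPKM, also higher in each preparation, and overlapped Ad-LacZ in RPKM but not after scaling. Its log2 fold change was 0.34 (SE 0.09, exact permutation p = 0.0286, limma adjusted p = 0.303). Neither passed the adjusted p with the block, at 0.364 for Fos and 0.132 for Egr1.

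For the other members (Fosb, Fosl1, Fosl2, Atf2 and Ier2) the mean differences were small, and for each of them single preparations went opposite ways. Ier2 had 3.26 RPKM against 6.5 of its control in F1 and 7.74 against 4.96 in F2. Fosl2 had 3.81 against 6.84 in F1 and 9.36 against 6.38 in F2. Fosb had 0.189 to 0.44 RPKM and Fosl1 0.138 to 0.71 RPKM, with log2 fold changes of 0.02 and -0.07 in the fit with the lower filter. Fosl2 had 3.81 to 10.1 RPKM, Atf2 16.9 to 19.3 RPKM and Ier2 3.26 to 8.48 RPKM, with log2 fold changes of -0.12 (SE 0.22), -0.07 (SE 0.11) and 0.06 (SE 0.20), and adjusted p of 1 in limma for all 3. F1 was the lowest library of this group for every member except Atf2, for which it was the highest.

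**Figure D2:**
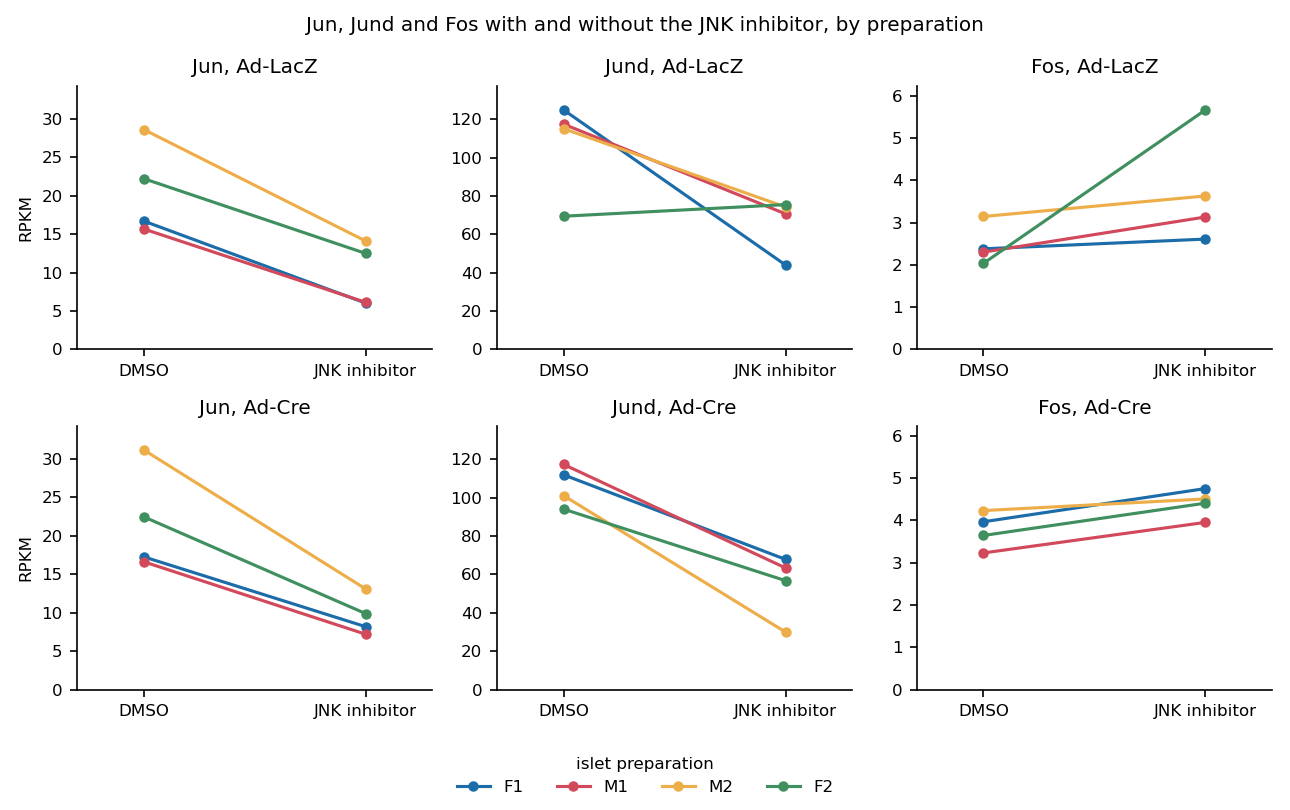
RPKM of Jun, Jund and Fos (y axes, linear from 0) with DMSO and with the JNK inhibitor (x axes), in Ad-LacZ cultures (top) and Ad-Cre cultures (bottom), 1 line per islet preparation. All 8 lines of Jun go down, 7 of the 8 lines of Jund go down with F2 of Ad-LacZ as the exception, and all 8 lines of Fos go up.

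In Ad-Cre cultures the inhibitor was followed by lower Jun and Jund in 4 of 4 preparations and by higher Fos and Fosb in 4 of 4. Again none of the 8 members tested, and none of 11503 genes (0%), had an adjusted p under 0.05 in limma without a block, while 1091 genes had an unadjusted p under 0.05. With the preparation as a block 2 of the 8 members fell, Jun and Jund, and 6.00% of all genes were called, 2.04% of all being lower. Those calls were 455 genes higher and 235 lower, and 204 higher and 715 lower with RPKM as deposited, a scaling under which the median of all genes was -0.14 in place of -0.02 and the same 2 members, at -1.10 and -1.01, were called. By the looser rule 3 of the 8 members (Jun and Jund lower, Fos higher) and 8.80% of all genes were called. The groups did not overlap for Jun and Jund, as for 11.5% of all genes tested.

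Jun had 8.16, 7.18, 13.1 and 9.87 RPKM in the Ad-Cre + JNK inhibitor libraries, below the 16.6 RPKM of the lowest Ad-Cre library. The differences by preparation on the log2 scale were -0.89, -1.0, -0.98 and -0.99, a range narrower than that in the Ad-LacZ cultures. Jun had a log2 fold change of -0.97 (SE 0.21, exact permutation p = 0.0286, limma adjusted p = 0.21), and with the block it had an SE of 0.06 and an adjusted p of 0.0105. The mean was 0.438 times that of the Ad-Cre libraries, beside 0.466 times in the Ad-LacZ cultures.

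Jund had 67.8, 63.4, 29.9 and 56.7 RPKM, below the 94 RPKM of the lowest Ad-Cre library. M2 stood lowest, with a difference of -1.51 on the log2 scale against -0.60, -0.76 and -0.59 in F1, M1 and F2. For Jund the log2 fold change was -0.86 (SE 0.26, limma adjusted p = 0.317), and with the block the SE was 0.16 and the adjusted p was 0.0393. Leaving out 1 preparation or the F2 library of the other lane moved the difference of Jund between -0.96 and -0.67 and that of Jun between -0.99 and -0.94.

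Fos had 4.75, 3.95, 4.5 and 4.4 RPKM, higher than its own control in each preparation, by 0.25 to 0.32 on the log2 scale after scaling between libraries. The groups overlapped in RPKM but not after this scaling. On the log2 scale the fitted difference was 0.30 (SE 0.10, exact permutation p = 0.0286, limma adjusted p = 0.40). The limma adjusted p was 0.0573 with the block. With RPKM as deposited the difference was 0.18 (limma adjusted p = 0.455, block 0.126). Fosb had 1.1, 1.08, 0.892 and 1.16 RPKM, each above the highest Ad-Cre library (0.8 RPKM), on 56 to 140 reads. Its log2 fold change with the lower filter was 0.35 (SE 0.09, exact permutation p = 0.0286, limma adjusted p = 0.338), and the adjusted p was 0.0614 with the block, where 3.93% of all genes were called.

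For the remaining members the inhibitor gave smaller differences in Ad-Cre cultures. Junb had 20.2, 18.5, 16.5 and 28.7 RPKM, in RPKM higher than its control in F1 and F2 and lower in M1 and M2. After scaling between libraries M1 was higher by 0.07 on the log2 scale. The log2 fold change of Junb was -0.05 (SE 0.21). Fosl2 was lower in 4 of 4 preparations at 4.58 to 6.09 RPKM, with a log2 fold change of -0.37 (SE 0.22, limma adjusted p = 0.667, block 0.162). Atf2 had 7.28 to 12.2 RPKM, Egr1 3.79 to 7.07 RPKM and Ier2 6.07 to 7.66 RPKM, with log2 fold changes of -0.12, 0.04 and -0.08. Fosl1 had 0.536 to 1.18 RPKM and a log2 fold change of -0.09 with the lower filter.

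Marker levels of other cells differed with the inhibitor as well. The 6 macrophage markers summed to 130 to 304 RPKM in Ad-LacZ + JNK inhibitor against 66.1 to 74.7 in Ad-LacZ, without overlap. In Ad-Cre + JNK inhibitor they summed to 167 to 287 RPKM, which overlaps the 64.9 to 194 of Ad-Cre. Taken singly in the Ad-LacZ cultures, Lyz2, C1qa and Cd68 did not overlap between the groups, whereas C1qb, Adgre1 and Csf1r did. Of the 6, 1 was called there at an adjusted p under 0.05 (0.206% of all genes). The 4 α cell markers summed to 13254 to 27214 RPKM in Ad-Cre + JNK inhibitor and 11793 to 21519 in Ad-Cre (median log2 fold change 0.50), and the 2 δ cell markers to 2388 to 6673 and 1093 to 2468 RPKM (median 0.81), with 1 marker of each list higher by the block, where 3.96% of all genes were higher. Both sums were highest in M2 of Ad-Cre + JNK inhibitor, the library in which Jund was lowest. The 4 duct markers, which include Spp1, summed to 136 to 274 RPKM in Ad-LacZ, 104 to 331 in Ad-Cre, 376 to 909 in Ad-LacZ + JNK inhibitor and 217 to 305 in Ad-Cre + JNK inhibitor. Spp1, also on the AP-1 target list used below, made up most of these sums, with means of 161, 150, 571 and 206 RPKM in that order. Krt7 had means of 44.5, 41.2, 52.8 and 49.2 RPKM, and Krt19 ranged from 0.534 to 33 RPKM in Ad-LacZ + JNK inhibitor. The duct sums therefore follow mainly 1 gene. The stellate and fibroblast markers ranged from 125 to 1796 RPKM over all libraries, with M2 the highest preparation in every group, as it was for Jun. Their part in the values of the members was not tested.

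The interaction of virus and inhibitor, fitted over all 16 libraries, was called at an adjusted p under 0.05 for none of the 8 members and for 0.0163% of 12274 genes, with 427 genes at an unadjusted p under 0.05. By an unadjusted p under 0.05 and a fold above 1.2 it was called for 0 of the 8 members and 3.37% of all genes. For Jun it was 0.11 on the log2 scale (SE 0.33, limma adjusted p = 1, SE 0.13 with the block), and for Jund -0.19 (SE 0.36), so a difference between the viruses in the response of these genes was not detectable within these errors. The values were -0.55 (SE 0.48) for Junb, moving from -0.97 without F1 to -0.25 without M2, -0.13 (SE 0.19) for Fos and -0.29 (SE 0.19) for Egr1. Fosb had 0.33 (SE 0.11, adjusted p = 1) in the limma fit with the lower filter, its level being 0.3 and 0.322 RPKM without and with the inhibitor in Ad-LacZ and 0.701 and 1.06 RPKM in Ad-Cre.

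Under the inhibitor, the comparison of Ad-Cre with Ad-LacZ gave 1 called member of 8 (23.0% of 11598 genes called). Atf2 fell by 0.68 on the log2 scale (SE 0.16, limma adjusted p = 0.0176), from 16.9 to 19.3 RPKM in Ad-LacZ + JNK inhibitor to 7.28 to 12.2 RPKM in Ad-Cre + JNK inhibitor, and the call was lost without F1, M1 or F2, where the adjusted p reached 0.125, and with the 0.1 RPKM filter and block (adjusted p = 0.0541). Egr1 was higher in 4 of 4 preparations, with a log2 fold change of 0.52 (SE 0.16, limma adjusted p = 0.0501), and with the block, where 24.8% of all genes were called, its adjusted p was 0.0354. Atf2 was the 1 of the 8 without overlap, where 29.7% of all genes had none. Fosb, below the filter, did not overlap between the groups either, its mean being 3.29 times as high in Ad-Cre + JNK inhibitor, and rose by 0.70 in the fit with the lower filter (SE 0.08, limma adjusted p = 0.00158, 16.1% of 15221 genes called). Fosl1 had 0.37 in the same fit (SE 0.14, limma adjusted p = 0.0996), and 0.0456 was its adjusted p with the block. Fos (0.33, SE 0.15, adjusted p = 0.153), Jun (0.17, SE 0.25) and Junb (0.15, SE 0.39) were not called by limma. The positive values of Jun and Junb belong to the scaled log2 values, since mean RPKM was lower in Ad-Cre + JNK inhibitor for both, at 9.57 against 9.68 for Jun and 21 against 23.8 for Junb. The comparisons share control libraries with one another, so that their values are given side by side and not as independent evidence.

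**Figure D3:**
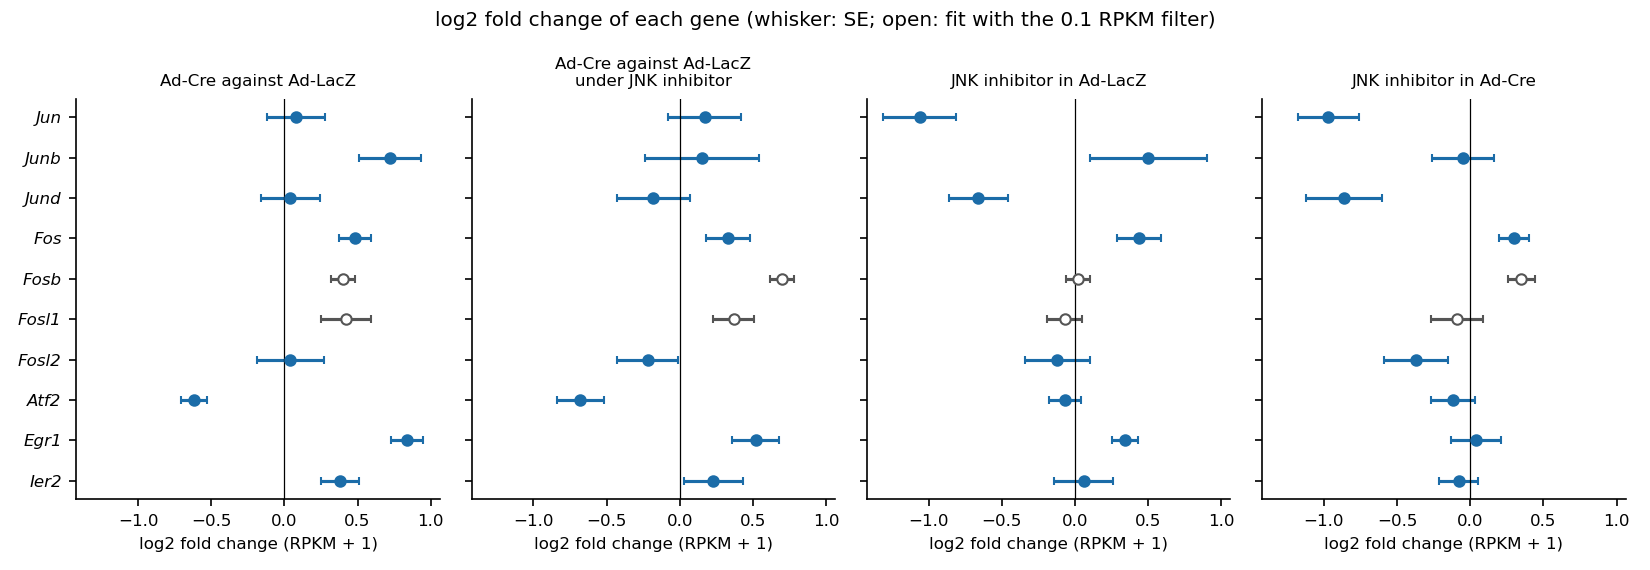
log2 fold change on the log2(RPKM + 1) scale (x axes) of each gene (y axis) in the 4 comparisons, with whiskers of 1 SE, open points being Fosb and Fosl1 from the fit with the 0.1 RPKM filter. Jun and Jund lie left of 0 in both inhibitor panels and near 0 in the virus panels, whereas Atf2 lies left of 0 and Egr1 and Fosb right of 0 in both virus panels.

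The balance within the families followed these values. The summed JUN family had 142 ± 27.1 RPKM in Ad-LacZ, 152 ± 11.6 in Ad-Cre, 99.4 ± 30.7 in Ad-LacZ + JNK inhibitor and 85 ± 17.3 in Ad-Cre + JNK inhibitor (SD, n = 4). The share of Junb in that sum was 10.3% ± 2.37 in Ad-LacZ, 15.9% ± 4.3 in Ad-Cre, 22.1% ± 7.49 in Ad-LacZ + JNK inhibitor and 24.9% ± 4.73 in Ad-Cre + JNK inhibitor (SD, n = 4). Of the other 3 groups, only Ad-Cre + JNK inhibitor did not overlap Ad-LacZ. In the FOS family, the share of Fosl2 was 70.1% ± 1.74 in Ad-LacZ, 58.4% ± 6.55 in Ad-Cre, 60.8% ± 5.28 in Ad-LacZ + JNK inhibitor and 45.5% ± 2.34 in Ad-Cre + JNK inhibitor (SD, n = 4). Shares of 1 sum are not independent of each other.

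After each preparation's mean was taken out, the 8 members above the filter varied together over the 16 libraries in the ways given here by Pearson's r, with no test. Jun varied with Jund (r = 0.81), and Jund with Fosl2 (r = 0.82). Junb varied with Ier2 (r = 0.88), Fos with Egr1 (r = 0.78) and Junb with Fos (r = 0.75), while Atf2 ran opposite to Egr1 (r = -0.79), Ier2 (r = -0.78), Fos (r = -0.76) and Junb (r = -0.74). The 16 points share 4 preparations, and the groups themselves are part of the correlation.

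Among all 12274 genes above the filter, the 5 most like Jun by the same measure were Dusp8 (r = 0.943), Dusp16 (r = 0.936), Txnip (r = 0.922), Kcnab3 (r = 0.912) and 2310022B05Rik (r = 0.91). Dusp8 and Dusp16 encode dual-specificity phosphatases, Txnip the thioredoxin-interacting protein and Kcnab3 a potassium channel subunit. Mean Dusp8 was 14.2 RPKM in Ad-LacZ, 17.1 in Ad-Cre, 4.71 in Ad-LacZ + JNK inhibitor and 5.96 in Ad-Cre + JNK inhibitor, and mean Txnip was 208, 223, 102 and 108 RPKM in the same order. The 5 most like Fos were Slc9a3r1 (r = 0.918), Ccdc107 (r = 0.918), the heme oxygenase gene Hmox1 (r = 0.908), the glutathione transferase gene Gsto1 (r = 0.902) and Nhp2 (r = 0.90). Mean Hmox1 was 41.1 RPKM in Ad-LacZ, 104 in Ad-Cre, 83.4 in Ad-LacZ + JNK inhibitor and 177 in Ad-Cre + JNK inhibitor. The 5 most like Egr1 were Dusp11 (r = 0.94), Hnrnpf (r = 0.934), Thyn1 (r = 0.921), Id4 (r = 0.92) and Usp39 (r = 0.919), with Id4, an inhibitor of DNA binding, at 0.776, 2.18, 0.938 and 1.72 mean RPKM in that order of groups.

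The wider pathway was followed with lists of known genes, described by counts at an adjusted p under 0.05 in limma and by the median log2 fold change. With Ad-Cre, 2 of 5 tested bZIP partners of AP-1 rose and 0 fell (median 0.55): Atf3, a stress-induced repressor and activator of the ATF family, from 2.66 to 8.32 mean RPKM (log2 fold change 1.32, SE 0.27, adjusted p = 0.0126), and the small MAF gene Mafk from 10.0 to 19.1 mean RPKM (0.87, SE 0.13, adjusted p = 0.00432). Of 21 other immediate-early genes 6 rose and 1 fell (median 0.40). Arc (1.2, SE 0.11) and the growth arrest gene Gadd45b (1.16, SE 0.18) had the largest rises, and Npas4, an activity-induced factor known in neurons and β cells, fell by 0.52 (SE 0.13). Arc, at a mean of 0.919 RPKM in Ad-LacZ and 3.35 in Ad-Cre, and Npas4, at 1.25 and 0.569, lay near the filter. Both passed it through the group in which they were high. Ier5l, also among the rises, lay near the filter in Ad-LacZ, at 1.05 against 3.59 in Ad-Cre. The calls of these genes are part of the counts but are no evidence about the list. Over all genes tested 8.98% rose and 10.3% fell.

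Known AP-1 target genes gave 3 rises and 0 falls among 17 tested with Ad-Cre (median 0.49), led by Hmox1 (1.38, SE 0.25) and the cyclin gene Ccnd1 (0.90, SE 0.15). A list of cJUN targets comes from the qPCR panel of the study and is no independent evidence. It holds genes held to be repressed by c-JUN (Map1lc3b and Lgals3) as well as genes held to be induced by it, so that its signs cannot be read in a single direction. Among the 6 of them tested, Map1lc3b, an autophagosome gene, rose by 0.92 (SE 0.11) and Nfatc2, a calcium-regulated factor, fell by 0.51 (SE 0.10). The 5 genes for JNK and its kinases (Mapk8, Mapk9, Mapk10, Map2k4, Map2k7) had a median of -0.27, and none was called without the block. With the block 2 fell, where 34.5% of all genes were called and 2037 of 11590 fell. Among 9 tested regulators of AP-1 gene transcription 3 fell and 0 rose: the CREM gene Crem (-0.66, SE 0.13), Mef2a (-0.44, SE 0.13) and Creb1 (-0.40, SE 0.11). Fbxw7, which encodes a ubiquitin ligase subunit that targets c-JUN for degradation, fell by 0.53 (SE 0.16), 1 of the 3 tested genes for the turnover of JUN and FOS proteins.

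With the inhibitor in Ad-Cre cultures, none of the genes on these lists passed the adjusted p without the block. With it, 2 of 20 other immediate-early genes rose and 1 fell, and 3 of 19 AP-1 target genes rose and 2 fell, where 3.96% of all genes rose and 2.04% fell. Hmox1 had 0.92 (SE 0.21) before the block. The immediate-early gene that fell was Klf10 (-0.50, SE 0.20, limma adjusted p = 0.0275 with the block). The immediate-early nuclear receptors Nr4a1 (1.01, SE 0.43) and Nr4a2 (0.70, SE 0.16) rose with the block (limma adjusted p = 0.018 and 0.031). Csrnp1 (-0.58, SE 0.15) and Rhob (-0.55, SE 0.23) had limma adjusted p of 0.233 and 0.481, and 0.0869 and 0.13 with the block. On the qPCR list, Txnip had -0.89 (SE 0.16) and Wee1 -0.32 (SE 0.11), while Map1lc3b had 0.66 (SE 0.12), and with the block Txnip fell and Map1lc3b rose (limma adjusted p = 0.018 and 0.022). In Ad-LacZ cultures Txnip had -1.03 (SE 0.27, limma adjusted p = 0.33, block 0.035) and Wee1, a cell cycle kinase gene, -0.43 (SE 0.09, adjusted p = 0.195). There, AP-1 target genes had a median of 0.36 with none of 19 called, and 2 rose with the block, where 0.360% of all genes were called.

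**Figure D4:**
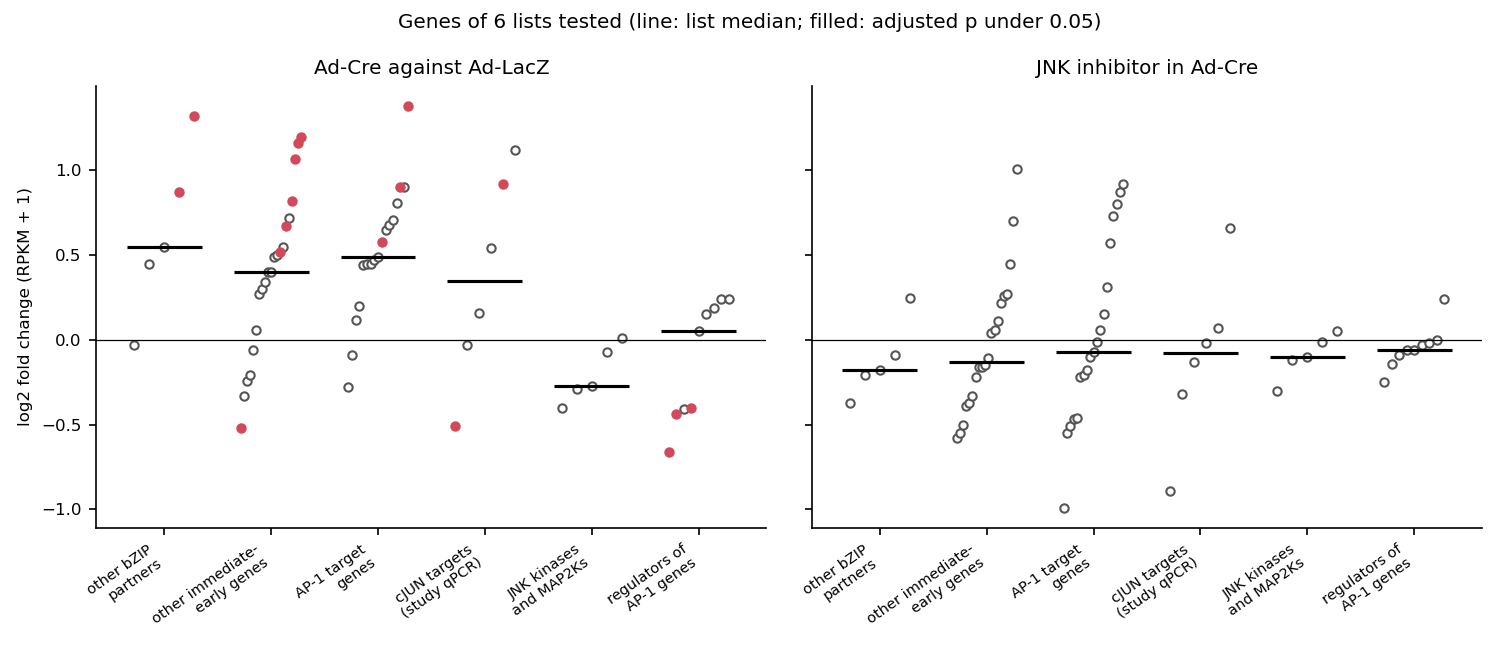
log2 fold change on the log2(RPKM + 1) scale (y axis) of the tested genes of 6 lists (x axis), for Ad-Cre against Ad-LacZ (left) and for the JNK inhibitor in Ad-Cre cultures (right), each point being 1 gene, filled at an adjusted p under 0.05, with a line at the list median. In the left panel the bZIP partners, immediate-early genes and AP-1 targets have medians of 0.55, 0.40 and 0.49, and in the right panel -0.18, -0.13 and -0.07 with no filled point.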

How the data were processed

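Bulk RNA-seq of 16 mouse islet cell libraries was analysed, 4 groups of 4. The authors deposited 1 matrix of RPKM values for 25105 genes. The submitters' processing notes name GRCm38, and the gene lengths, strand setting and RPKM step are not given in the sources used here. Of its columns, 3 that no label names were not used.

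Low values rose in steps of 1 read, and 92.3% to 93.5% of them were whole within 0.02 read, which gave depths of 7.7 M to 25.5 M reads. For 144 of 160 member values whole reads were recovered (none for Fosl1). Poisson intervals (95%) cover counting error only.

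RPKM values were scaled by TMM factors (trim of 30% for ratios and 5% for levels), genes that exceeded 1 RPKM in 4 or more of the compared libraries were kept, and log2(RPKM + 1) was tested with limma 3.58.1 (trended eBayes) in R 4.3.3, with Benjamini-Hochberg adjustment. A fold change on this scale understates the change of low genes. Calls were made at an adjusted p under 0.05, or at an unadjusted p under 0.05 with a fold above 1.5 (virus) or 1.2 (inhibitor, interaction). Single genes were also tested by the exact two-sided permutation test over libraries. It used the scaled log2 values, which can separate where RPKM overlap, and it left the pairing of libraries by preparation out of account. The scripts were tested on simulated data. Figures and tables used Python 3.11.15 and pandas 2.3.3.

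Preparation labels pair the libraries. Residuals of the same preparation correlated at 0.484 to 0.716 (Ad-Cre against Ad-LacZ), 0.641 to 0.819 (inhibitor, Ad-Cre), 0.126 to 0.824 (inhibitor, Ad-LacZ) and 0.154 to 0.657 (virus under inhibitor). The fit without this block was the main one.

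The members and gene lists were chosen with earlier results of these data known. Named with values are the members, Hspa5, up to 4 genes of each list (largest rises and falls past the threshold) and the 5 genes most correlated with Jun, Fos and Egr1. Alternatives were a pseudocount of 0.1, filters, RPKM as deposited, quantile normalization, an untrended eBayes, all 16 libraries in 1 fit, the block and leaving out libraries. Blocks combined with the 0.1 RPKM filter or another scaling were chosen after seeing the data.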

Additional observations from a re-analysis of the deposited data

Results flagged for a closer look

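Within groups of 4 libraries, the highest or lowest library was looked at for each of the 10 members, and chance flags about 1 in 20 groups. Of 40 groups, 6 held a library that stood apart. Jund was 44 RPKM in F1 of Ad-LacZ + JNK inhibitor, where the others had 70.7 to 75.5. Fosl2 was 10.9 RPKM in M2 of Ad-LacZ, where the others had 6.38 to 7.01. Atf2 was 9.5 RPKM in F1 of Ad-Cre against 12.4 to 12.8, and 19.3 RPKM in F1 of Ad-LacZ + JNK inhibitor against 16.9 to 17.3. In M2 of Ad-Cre, Egr1 was 6.77 RPKM against 4.52 to 4.86 and Ier2 was 10.9 RPKM against 7.09 to 7.67.

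In 3 cases both F preparations moved one way and both M preparations the other, a difference between them that was not tested. For Fosb with the inhibitor in Ad-LacZ the mean difference between F and M was 0.18 on the log2 scale, F being at 0.05 to 0.18 and M at -0.12 to -0.01. For Ier2 with the inhibitor in Ad-Cre it was 0.37, F being at 0.11 in both and M at -0.42 to -0.10. For Ier2 in Ad-Cre against Ad-LacZ under the inhibitor it was 0.61, F being at 0.13 to 0.94 and M at -0.10 to -0.05. These are differences of log2 values scaled between libraries, and the direction of F for Ier2 rests on that scaling: in RPKM as deposited Ier2 went from 7.09 to 7.11 in F1 and from 7.67 to 7.66 in F2 with the inhibitor in Ad-Cre, and was 7.66 against 7.74 in F2 under the inhibitor.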

How the results depend on the processing

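Of the values recomputed under other settings, 556 kept their direction and side of the threshold, 14 lost a call, 22 gained one and 24 changed sign. Called members in Ad-Cre against Ad-LacZ numbered 4 of 8 (19.3% of all genes called) and 7 of 10 with the 0.1 RPKM filter and block (24.5%). They numbered 2 to 4 leaving out a preparation, where 373 to 1070 genes were called. With the preparation as a replicate block, called members were 2 of 8 for the inhibitor in Ad-Cre (also 2 with each added block fit), where 6.00% of all genes were called. They were 1 of 8 in Ad-LacZ (0.360% of all genes, also after quantile normalization) and 2 of 8 for the virus under the inhibitor (24.8% of all genes). Beyond the changes given for single genes the block changed no other call of a member. For the virus under the inhibitor the count, 1 of 8 as reported (23.0% of all genes), was also 2 with a pseudocount of 0.1, no filter, the 0.1 RPKM filter, quantile normalization, all 16 libraries in 1 fit, and the block with RPKM as deposited or quantile normalization. It was 3 of 10 with the 0.1 RPKM filter and block (18.9% of all genes), and ranged from 0 to 2 leaving out libraries. By unadjusted p and fold, members were 5 for the inhibitor in Ad-Cre (0.1 RPKM filter, block), 2 for the virus under the inhibitor (pseudocount 0.1, no filter, 0.1 RPKM filter, quantile normalization, and the last 2 with the block), 1 for the interaction (no filter, 0.1 RPKM filter with and without block, RPKM as deposited with block) and 0 to 2 for it leaving out libraries. Counts without a share of all genes beside them are not a result about the members. The cause of the differences between settings was not tested.

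Genes called in all were 2236 against 3998 with the block and 1490 with no filter (373 to 1070 leaving out a preparation) for Ad-Cre against Ad-LacZ, 0 against 690 for the inhibitor in Ad-Cre (78 with all 16 libraries in 1 fit), and 24 against 42 with the block and 1 to 2 leaving out a preparation for the inhibitor in Ad-LacZ. For the virus under the inhibitor 1359 rose and 1307 fell, and 950 rose and 2106 fell with RPKM as deposited.

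Values near 0 changed sign: Jund to -0.12 (quantile normalization, Ad-Cre against Ad-LacZ), Egr1 to -0.08 (RPKM as deposited, inhibitor in Ad-Cre) and the interaction of Jun to -0.02 (RPKM as deposited), each with and without the block. Leaving out libraries, sign changes gave ranges of -0.08 to 0.10 for Jund and -0.05 to 0.14 for Fosl2 in Ad-Cre against Ad-LacZ, -0.19 to 0.20 for Junb, -0.05 to 0.11 for Egr1 and -0.14 to 0.03 for Ier2 with the inhibitor in Ad-Cre. They were also -0.29 to 0.04 for Fosl2, -0.17 to 0.01 for Atf2 and -0.07 to 0.32 for Ier2 with the inhibitor in Ad-LacZ, -0.27 to 0.42 for Junb, -0.43 to 0.09 for Jund and 0.00 to 0.33 for Ier2 for the virus under the inhibitor. The rest were -0.50 to 0.03 for Jund, -0.20 to 0.07 for Fos, -0.15 to 0.11 for Atf2 and -0.44 to 0.06 for Ier2 for the interaction.

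Depth limits Fosb and Fosl1. Fosb had 23 to 140 reads. For Fosl1, 6 to 91 reads are rounded estimates from the annotated exon length, with which no whole reads were recovered.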
